A study of Homo sapiens with 2 samples.

Results

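The study treated SK-NEP-1 cells with LBH589 and read their transcripts on a microarray. Here the genes that its pathway lists place under pyrimidine metabolism or under the one carbon pool by folate were described. SK-NEP-1 is an established human line that the labels call a kidney (Wilms tumor) line. LBH589 (panobinostat) is a hydroxamate drug that blocks histone deacetylases, which take acetyl groups off histones and other proteins. The LBH589-treated cells received 100 nM LBH589 for 24 h. The control cells received DMSO, the solvent of the drug, in equal volume. By the study's methods, rRNA was removed from the total RNA before labelling. Each condition was 1 array, with 2 arrays in all on 1 slide. No difference below therefore has a replicate check, and no test was possible. With so few arrays, their number limits the precision.

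The pathway lists name 38 distinct genes, 30 under pyrimidine metabolism and 9 under the folate pool, with TYMS in both. Probes were named through the part of the study's lists of up and down regulated transcripts that was held here. That part gave an mRNA probe for 16 of these genes, and 18 member probes among the 58921 non-control probes of the array. For the remaining 22 genes no mRNA probe was analysed here. They are CAD of de novo pyrimidine synthesis, RRM1 of ribonucleotide reductase, the salvage genes CDA, DCK, UCKL1 and UPRT, the kinases NME3 and NME6, the nucleotidases NT5C and NT5C3L, TXNRD2, the folate genes ALDH1L2, MTHFD2, MTHFD2L and MTR, the DNA polymerase subunits POLA2, POLE2 and POLE3, and the RNA polymerase subunits POLR3B, POLR3D, POLR3E and ZNRD1. The study drew up its lists from these same arrays, so the members were selected on the direction and the size of the very differences given below. These differences are a description.

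Pyrimidine nucleotides are made de novo from carbamoyl phosphate or recovered from uridine, cytidine and thymidine by salvage kinases. Further kinases raise the monophosphates to triphosphates, and ribonucleotide reductase converts ribonucleotides to the deoxy form used in DNA. Thymidylate is the DNA-specific step: thymidylate synthase methylates dUMP with a one-carbon unit carried by folate. The same carriers supply carbons to the purine ring, so the folate list and the purine enzymes GART and ATIC meet there. The pathway is best known in proliferating cells, where thymidylate synthase and the purine enzymes are targets of antifolate and fluoropyrimidine drugs.

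Each member was read on 1 spot by a probe of 60 bases. Some of these probes share sequence, so their values are not separate readings of the gene. The probes below are some of those the results turn on, among them the overlapping pair of ITPA and the probes of DTYMK and SHMT2 that share a stretch with another probe of the gene. Capitals mark the longest stretch shared with another probe of the same gene, and a sequence without capitals shares no stretch of 20 bases or more.
TYMS: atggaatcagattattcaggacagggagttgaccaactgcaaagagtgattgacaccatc
UCK2: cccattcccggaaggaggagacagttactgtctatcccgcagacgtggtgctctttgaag
ATIC: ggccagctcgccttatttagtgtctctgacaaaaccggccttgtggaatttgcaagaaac
DTYMK: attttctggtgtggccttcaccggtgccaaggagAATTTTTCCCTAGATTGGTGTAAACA
SHMT2, transcript NM_005412: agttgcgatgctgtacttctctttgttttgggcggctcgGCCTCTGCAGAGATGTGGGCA
ITPA, transcript ENST00000380113: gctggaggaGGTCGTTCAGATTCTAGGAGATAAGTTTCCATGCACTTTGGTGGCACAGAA
ITPA, transcript NM_181493: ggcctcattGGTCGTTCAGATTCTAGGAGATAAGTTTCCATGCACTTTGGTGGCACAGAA
Both ITPA probes have 51 bases in common and are close to 1 reading. The DTYMK probe shares 26 bases with a probe of a noncoding DTYMK transcript. The SHMT2 probe shares 21 bases with the probe of a second SHMT2 mRNA, NM_001166357.

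LBH589-treated SK-NEP-1 cells had lower signals than DMSO-treated control cells at 16 of the 18 member probes and higher signals at 2. The value used throughout is the log2 processed signal minus the 75th percentile of its own array, LBH589 minus DMSO. Where the scanner software marked a probe well above background on only 1 array, the difference is a bound, set on the other array by the dimmest signal so marked or by the probe's own signal, whichever was higher. That held for 5 members, and 13 were read on both arrays. At least 2-fold lower were 15 of the 18 member probes, against 10.2% of the 41574 probes read above background on 1 or both arrays. At least 2-fold higher were 2, against 12.3% of these probes. At least 5-fold lower were 7, against 1.65%, and none was at least 5-fold higher, against 2.49%. Since membership used these differences, nothing is read from the gap between the members and the array. The median log2 difference of the 18 member probes was -2.20, and that of the 13 read on both arrays was -2.34, beside -0.04 for all probes read on both arrays.

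The scaling sets these values relative to each array. The 75th percentile of the signals was 188.6 under DMSO and 108.4 under LBH589. Without scaling, the median over all probes read on both arrays was -0.83, and 16249 probes were at least 2-fold lower with 1802 at least 2-fold higher, in place of 4252 and 5094. All 18 member probes had the same direction with and without scaling. In RNA from a whole culture, fewer cells of a kind and less RNA per cell cannot be told apart.

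**Figure D1:**
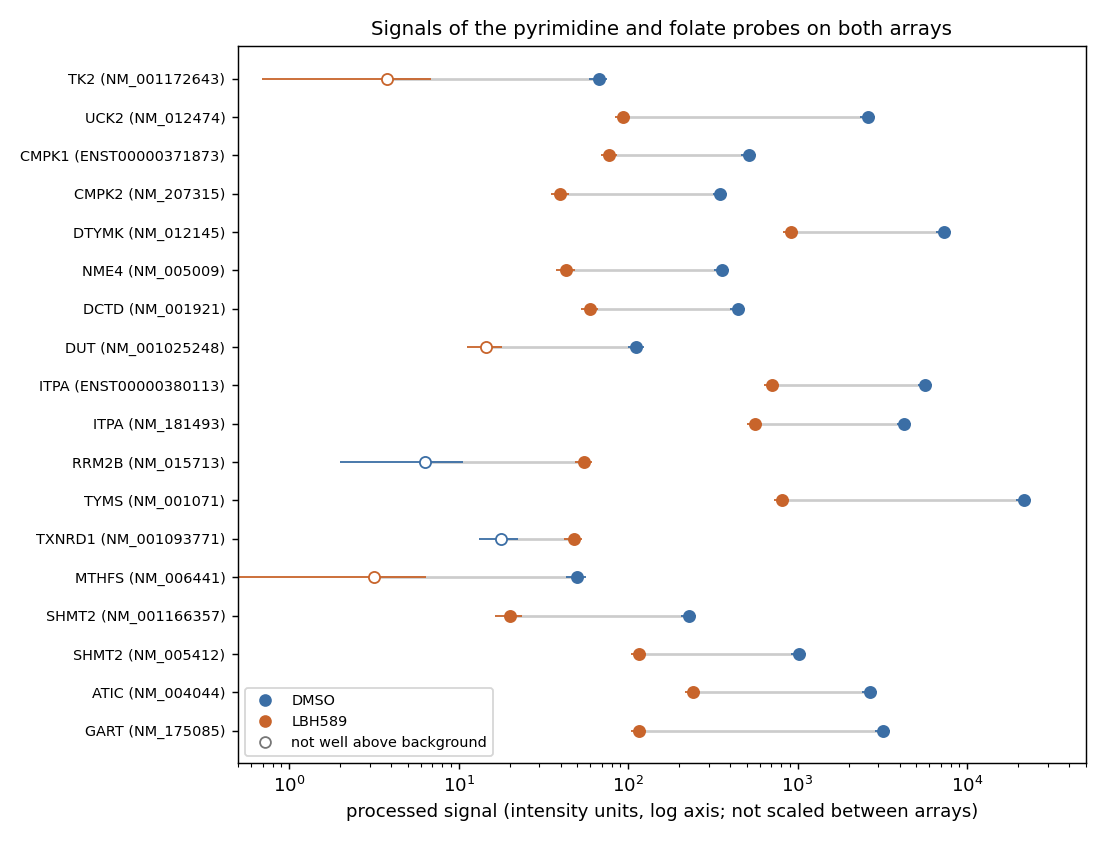
Processed signal of each member probe under DMSO (blue) and LBH589 (orange), on a log axis, in intensity units that are not scaled between arrays. Thin bars are the scanner software's error of the spot, open points were not well above background, and the bar of MTHFS on the LBH589 array runs past the left edge because its error is as large as its signal. The orange point lies left of the blue one for every probe except those of RRM2B and TXNRD1.

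Among the salvage enzymes, UCK2 had one of the 3 log2 differences near -4. UCK2 phosphorylates uridine and cytidine, and its gene lies at chr1:165796732-165880855 on the plus strand (hg19, the build of all gene positions here). The UCK2 probe read 2603 ± 260.3 under DMSO and 93.5 ± 9.89 under LBH589, where the error is that of the spot. The log2 difference was -4.00 with an error of 0.21, or 16.0-fold lower. This error covers the reading of the spots and leaves out any difference between cultures.

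TK2, the thymidine kinase of mitochondria (chr16:66541906-66584194, minus strand), was near background. Its probe read 67.1 ± 7.95 under DMSO and 3.78 ± 3.08 under LBH589, where it was not well above background. The log2 difference was a bound of -1.41, or 2.66-fold lower with the dimmest LBH589 signal marked well above background in place of its own. On the DMSO array 19 of the 600 spots named Negative reached the TK2 signal or exceeded it. With both arrays floored at the 95th percentile of these spots the bound was -0.49, and after normexp background correction with quantile normalization it was -0.73, both under 2-fold.

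All 4 nucleotide kinases with a probe were lower, within a narrow range. They were CMPK1 and CMPK2, which phosphorylate UMP and CMP in the cytosol and in mitochondria, DTYMK, which turns dTMP into dTDP, and NME4, a mitochondrial nucleoside diphosphate kinase. The median of their log2 differences was -2.22. DTYMK (chr2:242615157-242626383, minus strand) read 7289 ± 728.9 under DMSO and 917.4 ± 91.8 under LBH589. The log2 difference of DTYMK was -2.19 with an error of 0.20, a 4.57-fold lower signal.

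The other kinases had dimmer spots. CMPK1 (chr1:47799469-47844511, plus strand) read 516.6 ± 51.8 against 77.5 ± 8.33 on the LBH589 array, a log2 difference of -1.94 with an error of 0.21. CMPK2 (chr2:6988440-7005950, minus strand) read 350.6 ± 35.3 against 39.9 ± 4.97, a log2 difference of -2.34 with an error of 0.23. NME4 (chr16:447192-450754, plus strand) read 357.7 ± 36.0 against 43.1 ± 5.36, a log2 difference of -2.26 with an error of 0.23. The intervals of 1 error around these 4 log2 differences all overlapped. Even so, the gap between CMPK1 and CMPK2 exceeded their combined error, and that between CMPK1 and NME4 did so narrowly. The other gaps among the kinases were within their combined errors.

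TYMS, thymidylate synthase, had another of the differences near -4. Its gene lies at chr18:657604-673499 on the plus strand. The TYMS probe read 21628 ± 2163 under DMSO and 805.0 ± 80.6 under LBH589. The log2 difference was -3.95 with an error of 0.20, a 15.4-fold lower signal. Under DMSO 99.0% of all probes had a lower signal, and under LBH589 92.3% did, so the TYMS probe stayed well above background on both.

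The enzymes that feed or guard the thymidylate pool were lower too. DCTD deaminates dCMP to dUMP, the substrate of thymidylate synthase, and lies at chr4:183811244-183838630 on the minus strand. Its probe read 443.1 ± 44.5 under DMSO and 59.6 ± 6.70 under LBH589, a log2 difference of -2.09 with an error of 0.22. DUT hydrolyses dUTP, which keeps uracil out of DNA and also yields dUMP, and lies at chr15:48623621-48635570 on the plus strand. Its probe, that of the transcript NM_001025248, was the only DUT probe in the rows used, so other transcripts of the gene were not read. This probe read 112.1 ± 12.0 under DMSO and 14.6 ± 3.33 under LBH589. The scanner software did not mark the LBH589 signal well above background. The probe's own signal set the bound of DUT, a log2 difference of -2.14 with an error of 0.36, or 4.41-fold lower. With the background set at the 95th percentile of the Negative spots the bound became -1.23, and after normexp it was -0.88, under 2-fold.

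ITPA removes inosine and other aberrant purine triphosphates from the nucleotide pool (chr20:3190006-3204516, plus strand). The probe of transcript ENST00000380113 read 5686 ± 568.6 under DMSO and 705.0 ± 70.6 under LBH589. The probe of transcript NM_181493 read 4272 ± 427.2 and 559.0 ± 56.0. Their log2 differences were -2.21 and -2.14, each with an error of 0.20. The 0.08 between them was smaller than the combined error of 0.29, as for 2 probes that share most of their sequence.

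RRM2B was one of the 2 members with a higher signal in LBH589-treated cells. It encodes the p53-inducible small subunit of ribonucleotide reductase, which supplies deoxynucleotides outside S phase, and lies at chr8:103216729-103251346 on the minus strand. Its probe read 6.31 ± 4.31 under DMSO, too dim to be marked well above background, and 55.0 ± 6.30 under LBH589. The log2 difference was a bound of 2.17, or 4.49-fold higher with the dimmest DMSO signal so marked in place of its own. No Negative spot of the LBH589 array reached the RRM2B signal, whose highest was 49.1, while 213 of 600 reached its DMSO signal. With both arrays floored at the 95th percentile of their Negative spots, 53.0 on DMSO and 27.4 on LBH589, the bound fell to 0.85.

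TXNRD1, the cytosolic thioredoxin reductase, was the other. Thioredoxin is an electron donor of ribonucleotide reductase, and the gene lies at chr12:104609557-104744085 on the plus strand. The probe of its transcript NM_001093771 read 17.9 ± 4.62 under DMSO, too dim to be marked well above background, and 47.8 ± 5.82 under LBH589. The log2 difference was a bound of 1.97, or 3.90-fold higher with the dimmest DMSO signal so marked in place of its own. No probe of another TXNRD1 transcript was read. Of the Negative spots of the LBH589 array, 1 reached the TXNRD1 signal, and of those of the DMSO array 106 reached its DMSO signal. With both arrays floored at the 95th percentile of their Negative spots the bound fell to 0.65, under 2-fold. Both higher members therefore had dim signals, and the lower members include 8 with DMSO signals above 1000.

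**Figure D2:**
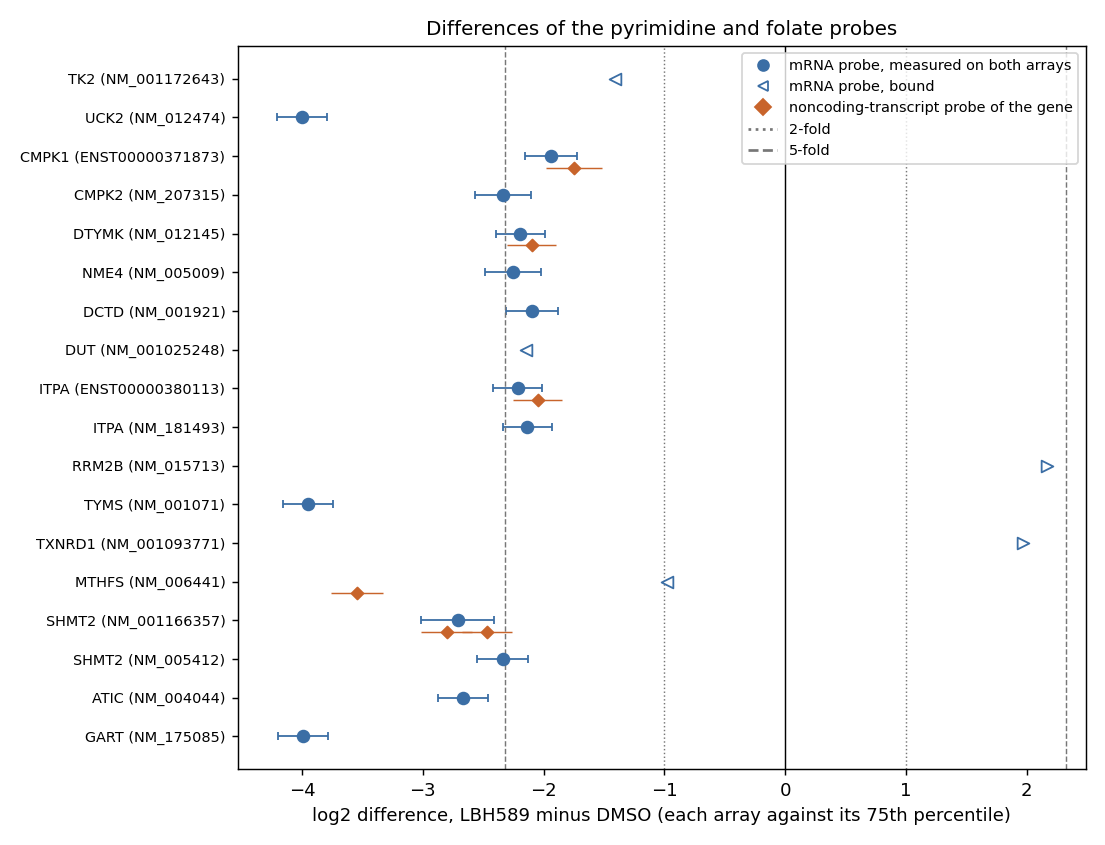
Log2 difference, LBH589 minus DMSO, of each member probe (blue) and of the noncoding-transcript probes of the same genes (orange diamonds, drawn under the first mRNA probe of the gene, ALDH1L2 not drawn), with dotted lines at 2-fold and dashed lines at 5-fold. Bars are the combined spot error of both arrays, and open triangles are bounds that point away from 0. UCK2, TYMS and GART lie near -4, most others lie between -2.8 and -1.9, and RRM2B and TXNRD1 are bounds above 0.

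Of the folate cycle genes, SHMT2 was read by a pair of mRNA probes and MTHFS by 1. SHMT2 is the mitochondrial serine hydroxymethyltransferase, which passes a carbon from serine to tetrahydrofolate (chr12:57623356-57628718, plus strand). The probe of transcript NM_005412 read 1021 ± 102.1 under DMSO and 116.0 ± 12.1 under LBH589, a log2 difference of -2.34 with an error of 0.21. The probe of transcript NM_001166357 read 228.5 ± 23.2 and 20.1 ± 3.66, a log2 difference of -2.71 with an error of 0.30. The 0.37 between them equalled their combined error of 0.37 to 2 decimals. On the LBH589 array 54 of the 600 Negative spots reached the dimmer of these signals, and with the floor at their 95th percentile its log2 difference was a bound of -2.26.

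MTHFS returns 5-formyltetrahydrofolate to the active folate pool (chr15:80135889-80189391, minus strand). Its mRNA probe read 49.8 ± 6.56 under DMSO and 3.19 ± 3.20 under LBH589, where it was not well above background. The log2 difference was a bound of -0.98, just under 2-fold, and this was the only lower member that did not reach 2-fold. Of the Negative spots on the DMSO array, 35 reached the MTHFS signal, so it lay below their 95th percentile on both arrays. With the floor at that percentile, no value for this probe remained.

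Probes of both purine enzymes that use formyl folate were lower. ATIC carries out the final pair of steps to IMP, including the second formyl transfer (chr2:216176679-216214496, plus strand). Its probe read 2672 ± 267.2 under DMSO and 241.7 ± 24.3 under LBH589, a log2 difference of -2.67 with an error of 0.20. GART holds earlier activities of the same route, including the first formyl transfer. Its probe was that of the transcript NM_175085 (chr21:34896316-34914464, minus strand), and read 3195 ± 319.5 under DMSO and 115.5 ± 12.0 under LBH589. The log2 difference of this GART probe was -3.99 with an error of 0.21, a 15.9-fold lower signal. It was the only GART probe in the rows used, so other transcripts of the gene were not read. Which of the GART activities this transcript encodes was not examined, so its value is not read as one of the formyl transfer. GART, UCK2 and TYMS differed from each other by less than their errors.

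**Figure D3:**
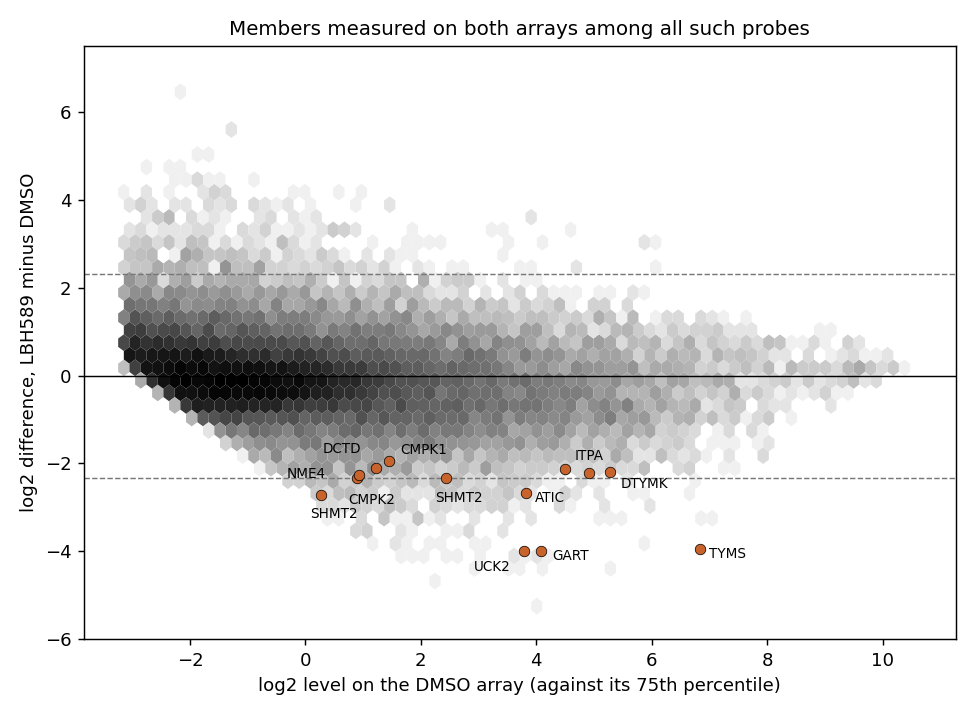
Log2 difference, LBH589 minus DMSO, against the log2 level on the DMSO array for every probe well above background on both arrays (grey, darker where more probes lie, on a log scale), with the 13 members so read in orange and dashed lines at 5-fold. The members lie along the lower edge of the cloud at levels from 0.28 (the dimmer SHMT2 probe) to 6.84 (TYMS), and few probes of the array lie below UCK2, GART and TYMS.

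The lower members lay, as their selection required, among the most reduced probes of the array. Of the 41574 probes, 0.236% had a log2 difference at or below that of UCK2, 0.243% at or below that of GART and 0.253% at or below that of TYMS. For CMPK1, the member read on both arrays with the smallest difference, the share was 2.75%. The rows of the down regulated list used here reached down to a log2 size of 1.54 before any bound was set, and those of the up regulated list to 1.82. Genes of these pathways with a smaller change could not be members.

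Noncoding transcripts of the same genes were read by 7 further probes. All 7 could be named only through the down regulated noncoding rows, so their direction was fixed by that choice and is a description. Their median log2 difference was -2.10, and 6 were at least 2-fold lower, against the 10.2% of all probes given above. MTHFS, whose mRNA probe was close to background, had a clear reading here. The probe of its transcript NR_037654 read 1337 ± 133.8 under DMSO and 65.9 ± 7.32 under LBH589, a log2 difference of -3.54 with an error of 0.22. The longest run that these MTHFS probes share is 5 bases, so they read different parts of the gene. Of the 60 bases, 73.3% were G or C in the mRNA probe and 40.0% in the noncoding-transcript probe, and the part of base composition in the gap between their signals was not tested.

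SHMT2 had 2 noncoding-transcript probes. NR_029415 read 798.7 ± 80.0 under DMSO and 65.8 ± 7.20 under LBH589, and NR_029416 read 2075 ± 207.5 and 215.5 ± 21.8. Their log2 differences were -2.80 and -2.47, so the 4 SHMT2 probes ran from -2.80 to -2.34. The widest gap among them, 0.46 between NR_029415 and NM_005412, exceeded the combined error of 0.30. The probes of NM_005412 and NR_029416 are both annotated as also detecting the noncoding transcript NR_029417. The probe of NR_029416 is annotated as also detecting NR_029415, so the SHMT2 probes do not separate the transcripts fully.

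For DTYMK, ITPA and CMPK1 the mRNA and noncoding-transcript probes differed by less than their combined error. The ITPA probe of ENST00000380113 is annotated as also detecting NR_052002, the noncoding transcript read here. These ITPA values are therefore not separate readings of mRNA and noncoding RNA. DTYMK NR_033255 read 3369 ± 336.9 and 452.2 ± 45.3, a log2 difference of -2.10. ITPA NR_052002 read 2869 ± 286.9 and 398.7 ± 40.0, a log2 difference of -2.05. CMPK1 NR_046394 read 290.7 ± 29.4 and 49.7 ± 6.11, a log2 difference of -1.75. The gaps to the mRNA probes were 0.09 for DTYMK, at most 0.16 for ITPA and 0.19 for CMPK1. ALDH1L2, a mitochondrial formyltetrahydrofolate dehydrogenase with no mRNA probe in the rows used, had 1 noncoding-transcript probe, NR_027752. It read 48.0 ± 6.42 under DMSO and 7.98 ± 3.20 under LBH589, not well above background there, for a bound of -0.93. On the DMSO array 36 Negative spots reached this ALDH1L2 signal.

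**Figure D4:**
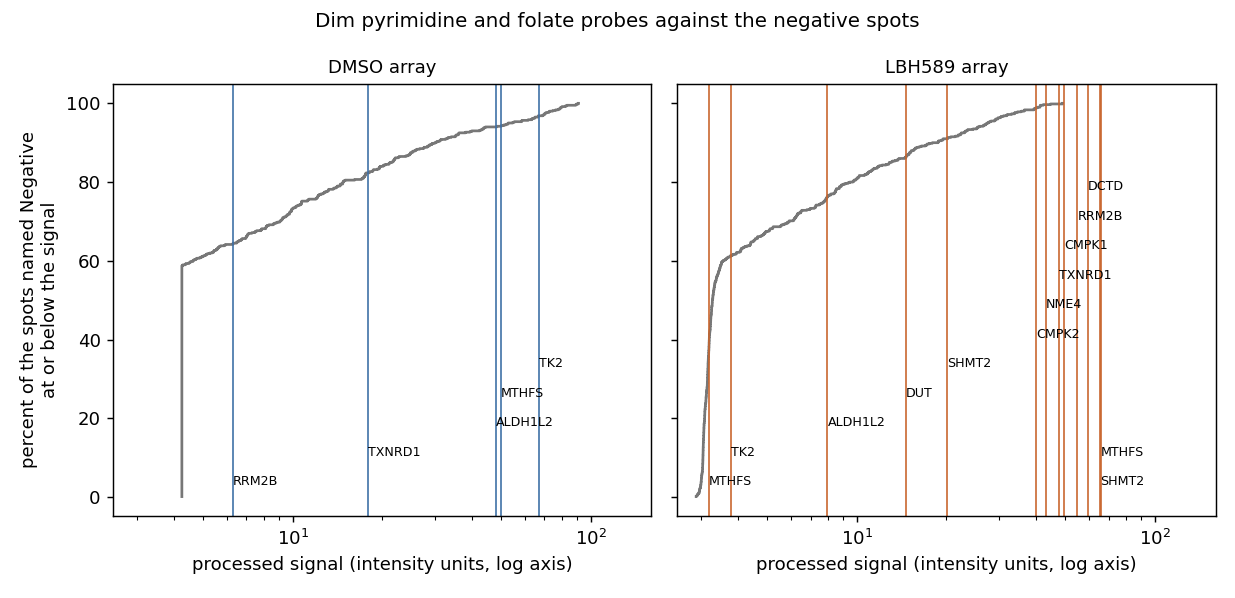
Share of the 600 spots named Negative at or below each processed signal (grey steps, percent) on the DMSO array (left) and the LBH589 array (right), with vertical lines at the member and noncoding-transcript probes with signals under 70. On the DMSO array RRM2B, TXNRD1, ALDH1L2, MTHFS and TK2 lie within the range of the Negative spots, and on the LBH589 array RRM2B at 55.0 lies past their highest signal of 49.1.

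A further 101 symbols of these pathways and their neighbours were on a wider list, of which 5 had a probe in the rows used. These 5 could be read only because they stand in the up or down regulated rows, so their directions, 2 lower and 3 higher, were fixed by that choice and nothing is read from the counts. All 5 were past 2-fold, as were 10.2% of all probes in the lower direction and 12.3% in the higher. SLC19A1, the reduced folate carrier that brings folate and methotrexate into cells, read 188.3 under DMSO and 19.5 under LBH589, a log2 difference of -2.47 with an error of 0.33. GMPS, which makes GMP from XMP, read 645.5 and 95.4, a log2 difference of -1.96 with an error of 0.21. The higher ones were FTCD, a folate enzyme of histidine breakdown, and the RNA polymerase subunits POLR2L and TWISTNB. FTCD read 20.0 under DMSO, too dim to be marked well above background, and 360.5 under LBH589, a bound of 4.88. POLR2L read 25949 and 95435, a log2 difference of 2.68, and TWISTNB read 569.9 and 1290, a log2 difference of 1.98, each with an error of 0.20. The pathway lists that gave the members hold none of these 5.

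Promoter windows from RefSeq (GRCh38.p14), each running from 250 bases before to 50 after a gene's start, were found for 34 of the 38 listed genes and 14 of the 16 genes with a probe. These windows were searched on both strands for 4 kinds of pattern, chosen after the differences were known. They were the E2F-type octamers TTTCCCGC, TTTGGCGC, TTTCGCGC and TTTGCCGC, the box CCAAT, the E-box CACGTG and the GC box GGGCGG. E2F proteins are transcription factors known for S-phase genes. An E2F-type octamer stood in the windows of 10 of the 34 listed genes and 4 of the 14 with a probe, against 3.99% of the 27305 genes in the table and 3.31% of its windows. CCAAT stood in 14 of the 34 against 39.7% of genes, CACGTG in 5 against 8.77%, and GGGCGG in 27 against 48.3%. The genes of the table were not matched to the listed genes in base composition, and the GC box was itself more frequent among the listed genes. The octamer share is therefore not read as particular to these genes.

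The genes with a probe and an octamer were CMPK2, DUT, GART and TYMS. Their stretches upstream of a start in the GRCh38.p14 annotation are shown because these genes include 2 of the 3 largest differences. The octamer is in capitals as read on the gene's strand. These starts were not matched to the transcripts that the probes read.
TYMS, chr18:657604-657631, plus strand, octamer starting 39 bases upstream: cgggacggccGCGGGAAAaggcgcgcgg
DUT, chr15:48332145-48332172, plus strand, starting 42 bases upstream: ggcggggctgGCGGGAAAtttcggtttt
DUT, chr15:48332160-48332187, plus strand, starting 27 bases upstream: aaatttcggtTTTGGCGCgctccctgcg
GART, chr21:33542345-33542367, minus strand, starting 245 bases upstream: agcatTTTGGCGCtcccccccgg
In CMPK2 the octamer starts after the annotated start. An octamer upstream of one start of a gene can lie inside another of its transcripts, and this was not examined for DUT NM_001025248 or GART NM_175085. The TYMS stretch begins at 657604, the number given above for the hg19 start of the gene, and the builds were not compared there. A match describes letters in a window and says nothing of a factor being bound there. UCK2, also near -4, has no octamer in its window. The log2 differences of the 4 genes with an octamer ran from -3.99 for GART to the bound of -2.14 for DUT.

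Markers of Ewing sarcoma and of nephric cells were looked up. They were read where a probe could be named, which was only through the up or down regulated rows. NKX2-2, a gene of Ewing sarcoma cells, read 290.0 under DMSO and 6.42 under LBH589, where it was not well above background. CAV1 read 77441 and 2445 at 1 probe and 4203 and 95.8 at another, and CCND1 read 3993 and 457.2. These markers were lower in LBH589-treated cells, a direction fixed by the rows that named them. Nothing is read from it about what the line is, and their part in the members' differences was not tested. No probe of a nephric marker could be named in the rows used, nor one of the further Ewing sarcoma markers NR0B1, STEAP1, CD99 and FLI1.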

How the data were processed

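RNA from SK-NEP-1 cells under DMSO (1 array) or 100 nM LBH589 (1 array) was labelled with Cy3 and hybridised to Arraystar Human LncRNA arrays. The deposited intensity values are the authors' Agilent Feature Extraction output (version 11.0.1.1 per the file headers, 10.7.3.1 in the submitters' processing notes), background subtracted and not normalized between arrays; scores flag spots per the file headers. The deposited log2 table holds the authors' values normalized between arrays by a method not given in the sources used here, and served as an alternative. From the intensities, control spots, spots named Negative and outlier-marked spots (26 on DMSO, 37 on LBH589) were left out, each array's 75th percentile was subtracted on the log2 scale, and spots of a probe were averaged. Of 58921 probes, 66.0% were well above background under DMSO and 63.3% under LBH589, the lowest so marked at 21.3 and 14.5. Probes were named through annotation columns of the part of the study's lists held here (1002 up and 952 down regulated mRNA rows, 1406 and 1363 noncoding rows), whose fold changes were not used. Every member and noncoding-transcript probe is named, and other pathway genes come from a list by role. Members and lists were chosen with earlier results of these data known. Python 3.11.15 and limma 3.58.1 were used, the counting steps were tested on simulated data, and alternatives changed scaling, background, bounds and filters.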

Additional observations from a re-analysis of the deposited data

Results flagged for a closer look

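Spots named Negative, 60 probes of 10 spots each that the scanner files do not mark as controls and that the main values leave out, gave signal on both arrays. The scanner software marked 90 of the 600 well above background under DMSO and 74 under LBH589. Their median was 4.25 under DMSO and 3.28 under LBH589, and their highest signals were 91.1 and 49.1. On the DMSO array the well-above-background readings of TK2 (67.1), MTHFS (49.8) and ALDH1L2 (48.0) lay within that range. On the LBH589 array so did those of SHMT2 NM_001166357 (20.1), CMPK2 (39.9), NME4 (43.1) and TXNRD1 (47.8).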

How the results depend on the processing

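No paired analysis was possible because each condition has 1 array. All member probes kept their direction under the alternatives that gave them a value. The median log2 difference of the member probes (-2.20) was -3.00 without scaling and -1.45 after normexp background correction with quantile normalization, and that of the noncoding-transcript probes (-2.10) was -2.90 and -1.84. Member probes at least 5-fold lower (7) numbered 14 without scaling and 3 after normexp. Member probes at least 2-fold higher (2) numbered 0 after normexp, 0 with only those probes kept that both arrays read above background, and 0 with signals floored at the 95th percentile of the Negative spots, a setting chosen after seeing the data. Member probes at least 5-fold higher (0) numbered 1 with own signals in place of the bound and 1 with no filter, in each case RRM2B. After normexp, TK2 (-0.73), DUT (-0.88), RRM2B (0.95) and TXNRD1 (0.63) came under 2-fold. With the Negative floor, TK2 (-0.49), RRM2B (0.85) and TXNRD1 (0.65) did so. Over all probes, the counts at least 2-fold lower and higher (4252 and 5094) were 16249 and 1802 without scaling, 2271 and 2474 after normexp, and 6560 and 9256 with no filter. The counts at least 5-fold lower and higher (684 and 1035) were 1963 and 477 without scaling and 249 and 406 after normexp, and those higher were 1687 with own signals and 1948 with no filter. The cause was not tested, except that leaving out scaling shifts every difference by the same amount. Of 174 single-probe values under 10 alternatives, 137 moved by less than the spot error, 37 moved by more and 0 reversed. Depth here is signal over background, which limits TK2, DUT, MTHFS, RRM2B and TXNRD1.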
